A study of Arabidopsis thaliana with 24 samples.

Results

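The comparison described here set shoots of Arabidopsis thaliana seedlings held for 3 h in polyethylene glycol (PEG) against shoots held in it for 1 h. The groups were PEG 3 h and PEG 1 h, with 3 libraries each, chosen by their labelled organ and exposure time, and together they make 6 of the 24 libraries of the series. Both groups were wild-type seedlings of the ecotype Columbia-0, 7 d old, and both were in aqueous 30% (w/v) PEG of average molecular weight 8000, measured at -2.0 MPa. The seedlings had grown on Murashige and Skoog medium with sucrose in a long-day light cycle. The labels call the replicates biological, and each was a pool of 30 to 50 seedlings, whose roots and shoots were separated after the treatment. Since both groups were stressed, a difference between them says what moved from the first to the third hour in PEG and not what PEG did relative to water. Libraries of shoots in water for 1 h and in PEG for 2 h are given as context and entered no test of the main comparison. Libraries of roots at PEG 3 h and PEG 1 h were used only to ask where the shoot change differed from that of the root.

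A PEG solution too large to enter cells draws water from the plant and lowers turgor, as drying soil does. Plants then make the hormone abscisic acid (ABA). Bound ABA lets receptors of the PYR/PYL family hold back the clade A PP2C phosphatases. This frees SnRK2 kinases, which act on ABF transcription factors that turn on genes for dehydrins, late embryogenesis abundant (LEA) proteins and protective sugars. Many PP2C and receptor genes are themselves under ABA control. In shoots, water loss is also known to slow growth through cell wall and aquaporin genes.

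Transcripts were counted from their 3′ ends by MARS-seq, so a count does not scale with transcript length, and levels are compared here only within a gene. The 6 libraries held 2519830 to 4009409 counts. Levels are in CPM, counts as a share of the effective library size, and 3 counts corresponded to 0.758 to 1.19 CPM in these libraries, which covers counting error only. Replicates of a group differed by more than counting noise, with a chi-square per degree of freedom of 2.42 to 7.32, so none was taken for a repeat of another. Of 15 root tissue marker genes in the table, 2 passed the filter on low counts. All 15 together made up 0.0021 to 0.0032% of the counts at 3 h, against 0.0024 to 0.0040% at 1 h. The 42 nuclear genes of light harvesting and the photosystems, which define green tissue, made up 18.1 to 19.9% of the counts at 3 h, against 21.4 to 22.9% at 1 h.

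The libraries do not fall in a clean order of time. On the first principal component, which held 50.2% of the variance, the 3 h libraries lay at 24.8, 28.5 and 17.55, against -31.5, -38.7 and -0.70 for the 1 h libraries. Replicate 3 of PEG 1 h thus stood apart from its group, toward the 3 h libraries. Among genes called without it, it lay at a median of 0.64 of the way from the other 1 h libraries to the 3 h mean for 909 higher genes and 0.51 for 644 lower genes. Choosing genes by the gap between the other libraries can by itself place a left-out 1 h library toward 3 h. No such value was computed for replicates 1 and 2 of PEG 1 h. Replicate 3 of PEG 2 h lay at 0.26 and 0.05 on the same scale, nearer to the 1 h end than replicate 3 of PEG 1 h. All 3 h libraries and that 2 h library carry a library code with the digit 5, and all 1 h libraries one with the digit 4. The labels do not say what this digit stands for, and within the 6 libraries it cannot be told apart from exposure time or hour of day. Whether replicate 3 of PEG 1 h and replicate 3 of PEG 2 h hold the exposure time of their labels was not tested. No library was relabelled, so every PEG 1 h value includes that replicate unless it is said to be left out. Replicate 3 of PEG 1 h was singled out from these same values. Larger changes and smaller p-values without it are therefore a description and no separate support. For each gene list described here with a call, the counts without replicate 3 of PEG 1 h stand beside the range of counts when any 1 of the other 5 libraries was left out.

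Of 13179 genes tested, 397 rose and 382 fell at 3 h against 1 h at an adjusted p under 0.05 (quasi-likelihood F test of edgeR, Benjamini-Hochberg adjustment, no limit on the fold). These were 3.01% and 2.9% of the genes tested, and 5.91% together, the shares beside which each list count below is to be read. All 3 libraries at 3 h lay above all 3 at 1 h for 395 of the 397 risers, and below for 380 of the 382 fallers. Over all genes tested, 12.3% had every 3 h library above every 1 h library and 12.2% below. The median change was 0.86 among risers and -0.90 among fallers on the log2 scale, and 0.01 over all genes. More than 2-fold changes were found for 151 risers and 161 fallers, and more than 4-fold ones for 20 and 8. RNA from whole shoots cannot tell more transcript per cell from more cells of a kind.

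The number of genes called depended on which libraries were used. Without replicate 3 of PEG 1 h, 979 genes rose and 753 fell, and 771 of the 779 genes called from 6 libraries were among them in the same direction. Leaving out replicate 1 or 2 of PEG 1 h gave 95 and 132 risers with 138 and 140 fallers. Without replicate 1, 2 or 3 of PEG 3 h, there were 157, 157 and 345 risers with 166, 155 and 345 fallers. The comparison therefore called fewest genes when replicate 3 was 1 of only 2 libraries at 1 h.

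**Figure D1:**
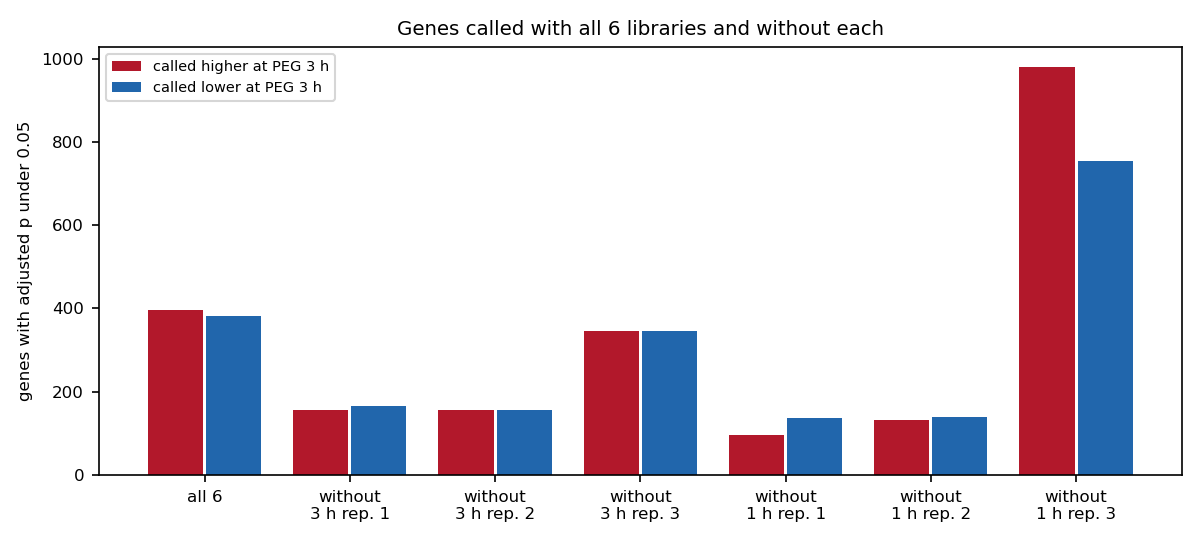
Number of genes with an adjusted p under 0.05 (y axis) from all 6 shoot libraries and without each library in turn (x axis), split into genes higher and genes lower at PEG 3 h than at PEG 1 h. Counts range from 95 risers and 138 fallers without replicate 1 of PEG 1 h to 979 and 753 without replicate 3 of PEG 1 h.

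Among called genes with a mean of at least 10 CPM in 1 group, TSPO had the highest fold change. TSPO, a membrane protein of the secretory pathway induced by ABA, had 11.1, 16.8 and 15.9 CPM at 3 h, against 0.3, 0.55 and 3.23 CPM at 1 h. The 1 h libraries held only 1, 2 and 11 of its counts, and the groups did not overlap. Its log2 fold change was 3.42 ± 0.47 (SE, n = 3 each; edgeR, adjusted p = 0.0017), and 5.01 when replicate 3 of PEG 1 h was left out.

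Others among the 12 strongest risers were GOLS2, a galactinol synthase of raffinose sugar synthesis, MAPKKK18, a kinase of the ABA pathway, LEA4-5, a LEA protein, and HAI1, a PP2C phosphatase. Their log2 fold changes were 2.81 for GOLS2, 2.75 for MAPKKK18, 2.75 for LEA4-5 and 2.46 for HAI1. When replicate 3 of PEG 1 h was left out they were 3.45 for GOLS2, 3.66 for MAPKKK18, 3.55 for LEA4-5 and 3.55 for HAI1. The heat shock factor gene HSFA6B rose by 2.05 and ADH1, the alcohol dehydrogenase of fermentation, by 2.01. FMO GS-OX4, which oxygenates side chains of glucosinolates, rose by 2.52. AT2G36780 and UGT73C1, neighbouring glycosyltransferase genes, rose by 2.91 and 2.00. Copies of that family are alike in sequence, and counts may be split uncertainly between them. AT1G07590, annotated as a tetratricopeptide repeat protein, rose by 2.49, and AT5G05220, of no annotated function, by 2.88. These 12 genes were taken from called genes whose groups did not overlap. Of 12 alternative fits, which included leaving out each library, 6 lost the call of UGT73C1 and 6 that of AT5G05220. The call was lost in 5 for HAI1 and in 2 for ADH1. It was lost in 1 each for MAPKKK18, HSFA6B, AT2G36780 and AT1G07590, and in none for TSPO, GOLS2, LEA4-5 and FMO GS-OX4. The 12 fits did not include a fit of the 9 shoot PEG libraries, a test against a fold of 1.5 or the authors' deposited values.

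The 12 genes that fell most were chosen in the same way and include the ABA receptor gene PYL4, described with its family. AT2G17740, a C1 domain protein, had 0.398, 1.29 and 1.77 CPM at 3 h, against 16.2, 14.3 and 7.63 CPM at 1 h. The 3 h libraries held 1, 5 and 7 of its counts, all below the 26 to 54 counts of the 1 h libraries. Its log2 fold change was -3.31 ± 0.42 (SE; edgeR, adjusted p = 0.00059), and AT2G44370, another C1 domain gene, changed by -1.85. IPT3, an isopentenyltransferase that starts cytokinin synthesis, changed by -1.96, and YUC5, a flavin monooxygenase of auxin synthesis, by -1.86. AT5G48430, an aspartyl protease, changed by -2.79, AT1G28660, a GDSL lipase, by -1.81, and AT1G51790, a leucine-rich repeat kinase, by -1.80. The 4 remaining genes, AT3G29034, AT1G65486, AT1G65845 and AT3G15518, have no annotated function and changed by -2.86, -1.91, -1.83 and -1.81. Of the 12 alternative fits, 4 lost the call for each of IPT3, AT5G48430 and AT1G28660. The call was lost in 3 for AT1G65845 and in 1 for AT2G44370, and the rest of these fallers kept it in all 12.

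**Figure D2:**
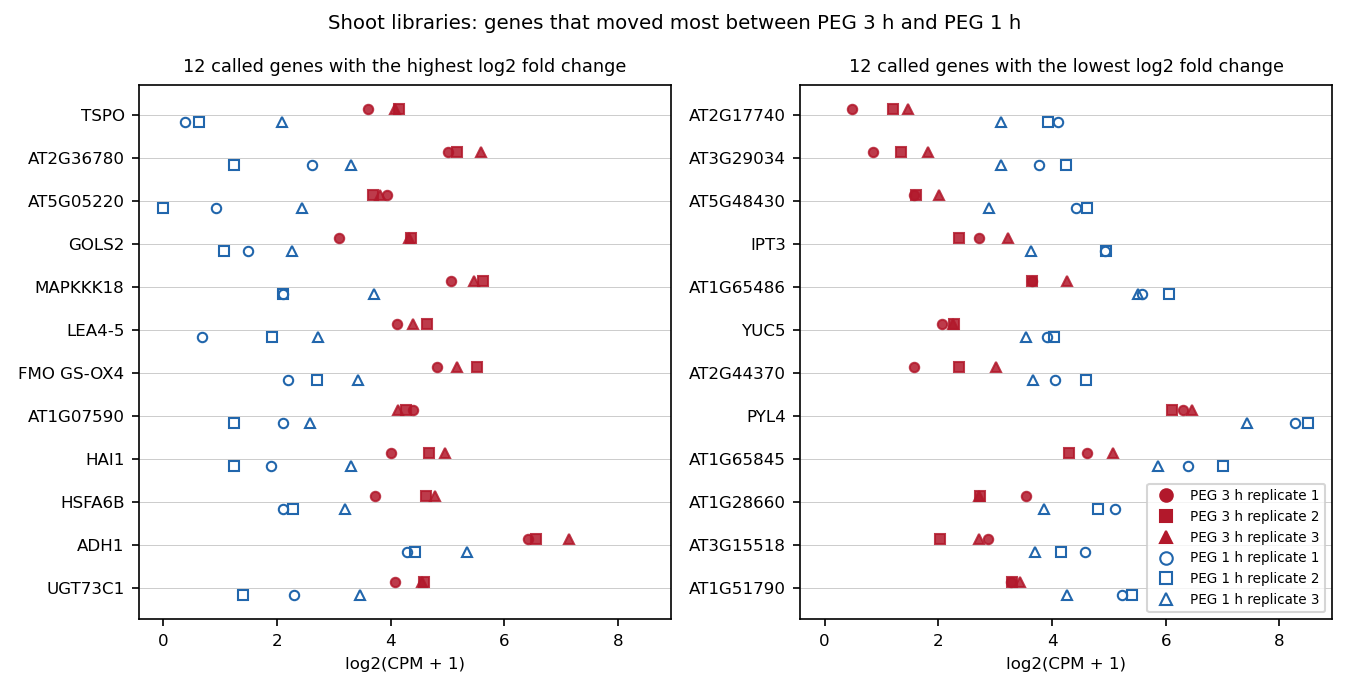
Level of each of the 12 called genes with the highest and the 12 with the lowest log2 fold change, as log2(CPM + 1) (x axis), in the 3 shoot libraries at PEG 3 h (filled) and the 3 at PEG 1 h (open). The genes were chosen among those whose groups do not overlap, and replicate 3 of PEG 1 h, the open triangle, is the 1 h library nearest to the 3 h libraries in all 12 risers.

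Several ABA receptor genes fell. Of 9 receptor genes tested, 4 fell and none rose, with a median log2 fold change of -0.54. PYL4 had 78.4, 68.1 and 87.6 CPM at 3 h, against 309, 361 and 171 CPM at 1 h. Every 3 h library was below the lowest 1 h library, which was replicate 3. Its log2 fold change was -1.84 ± 0.26 (SE; edgeR, adjusted p = 0.0059).

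The other receptor genes that fell were PYR1 (-0.90), PYL5 (-0.81) and PYL6 (-1.06). PYL7 did not pass the test, with 37.4, 47.7 and 40.7 CPM at 3 h against 12.6, 11.5 and 33.8 CPM at 1 h. Its groups did not overlap, and its log2 difference of 1.13 had an adjusted p of 0.17 by edgeR. PYL9 likewise had a log2 difference of 0.67 with an adjusted p of 0.057. From the 5 libraries without replicate 3 of PEG 1 h, 2 receptor genes rose beside 4 that fell. With any other library left out, 3 or 4 fell and none rose.

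PYL4 levels were also lower in PEG than in water, which was sampled at 1 h only, and this difference was not tested. Its mean was 665 ± 30.5 CPM in water at 1 h, 280 ± 98.5 in PEG at 1 h, 146 ± 80.4 at 2 h and 78.0 ± 9.8 at 3 h (SD, n = 3 each). PYL5 had 387 ± 39.7 CPM in water, and PYL6 had 95.8 ± 6.51 CPM. Both receptor genes lay lower at each PEG time than in water.

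Of 7 clade A PP2C genes tested, the phosphatases that hold the pathway off, 2 rose and none fell. HAB1 had 52.5, 55.4 and 48.2 CPM at 3 h, against 14.1, 16.8 and 35.8 CPM at 1 h, a log2 fold change of 1.23. HAI1 had 15.1, 24.5 and 30.1 CPM at 3 h, against 2.7, 1.37 and 8.81 CPM at 1 h. In all 7 genes, every 3 h library lay above every 1 h library, against 12.3% of all genes tested, and the list median was 1.26. All 7 rose when replicate 3 of PEG 1 h was left out, and the median was then 1.76. The 2 calls were lost when replicate 1 or 2 of PEG 1 h or replicate 2 or 3 of PEG 3 h was left out, and 1 was made in the fit without replicate 1 of PEG 3 h.

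Of 10 SnRK2, ABF and MAPKKK genes of ABA signalling, 5 rose and none fell, with a median of 0.71. MAPKKK18 had 32.6, 48.2 and 43.4 CPM at 3 h, against 3.3, 3.3 and 12 CPM at 1 h. Its 3 h libraries were all more than 2-fold above the highest 1 h library. The transcription factor genes ABF2 (0.82), ABF3 (1.23), ABF4 (0.53) and ABI5 (1.5) were the others that rose. The kinase genes SNRK2.2, SNRK2.3 and OST1 had log2 differences of 0.16, 0.32 and 0.02 and were not called. The regulators that rose in this list were therefore the MAPKKK and the transcription factors, and none of the 3 SnRK2 genes was called. The 5 risers became 7 without replicate 3 of PEG 1 h, and 1 or 2 without any other library.

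NCED3, the dioxygenase gene whose product makes the rate-limiting step of ABA synthesis under drought, had 61.3, 59.3 and 55.6 CPM at 3 h, against 12, 14 and 38.7 CPM at 1 h. The groups did not overlap, yet the log2 difference of 1.44 ± 0.42 (SE) did not pass the test (edgeR, adjusted p = 0.12). Leaving out replicate 3 of PEG 1 h made it 2.18, with an adjusted p of 2.7e-08 by edgeR. NCED3 was not called with any other library left out. Among 8 genes of ABA synthesis and breakdown, 1 fell and none rose, while 1 fell and 1 rose without replicate 3 of PEG 1 h and none was called without replicate 1 of PEG 3 h. The gene called lower from all 6 libraries was UGT71C5, a glucosyltransferase that conjugates ABA, which had 24.9 ± 4.1 CPM at 3 h and 44.0 ± 3.05 CPM at 1 h (SD), a log2 fold change of -0.81.

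Genes downstream of ABA and dehydration had a list median above that of all genes. Of 20 such effector genes tested, 3 rose and none fell, and the median was 1.66. In 17 of the 20, every 3 h library was above every 1 h library, against 12.3% of all genes tested. RD29B, a gene with several ABA response elements, had 7.96, 9.8 and 10.4 CPM at 3 h, against 0.601, 0.55 and 2.05 CPM at 1 h. The 1 h libraries held 2, 2 and 7 of its counts. Its log2 fold change was 3.12 ± 0.42 (SE; edgeR, adjusted p = 0.00069), and 3.98 when replicate 3 of PEG 1 h was left out. TSPO and LEA4-5 were the other 2 risers.

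RD29A, which responds to dehydration both with and without ABA, had 2370, 2380 and 2670 CPM at 3 h, against 315, 486 and 1690 CPM at 1 h. Replicate 3 at 1 h was over 3-fold above the other 1 h libraries but below all 3 h libraries. The log2 difference was 1.58 ± 0.74 (SE; edgeR, adjusted p = 0.35) with 6 libraries. With replicate 3 of PEG 1 h left out it was 2.64 (adjusted p = 6.8e-09 by edgeR). RD29A was not called with any other library left out. The 2 h libraries had 1480, 2120 and 744 CPM, so replicate 3 at 2 h was below replicate 3 at 1 h.

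The same spread within the 1 h group was seen in COR15A, a chloroplast LEA protein, which had 287, 224 and 357 CPM at 3 h, against 22.5, 30.2 and 209 CPM at 1 h. KIN1, RAB18 and RD20 were not called either, with adjusted p values of 0.25, 0.058 and 0.16 by edgeR. From the other 5 libraries, without replicate 3 of PEG 1 h, 18 of the 20 effector genes rose and none fell, and the median was 2.47. With any other library left out, 3 or 4 rose. RD22, another dehydration gene, had a log2 difference of 0.07, with 270, 249 and 266 CPM at 3 h against 242, 266 and 240 CPM at 1 h.

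**Figure D3:**
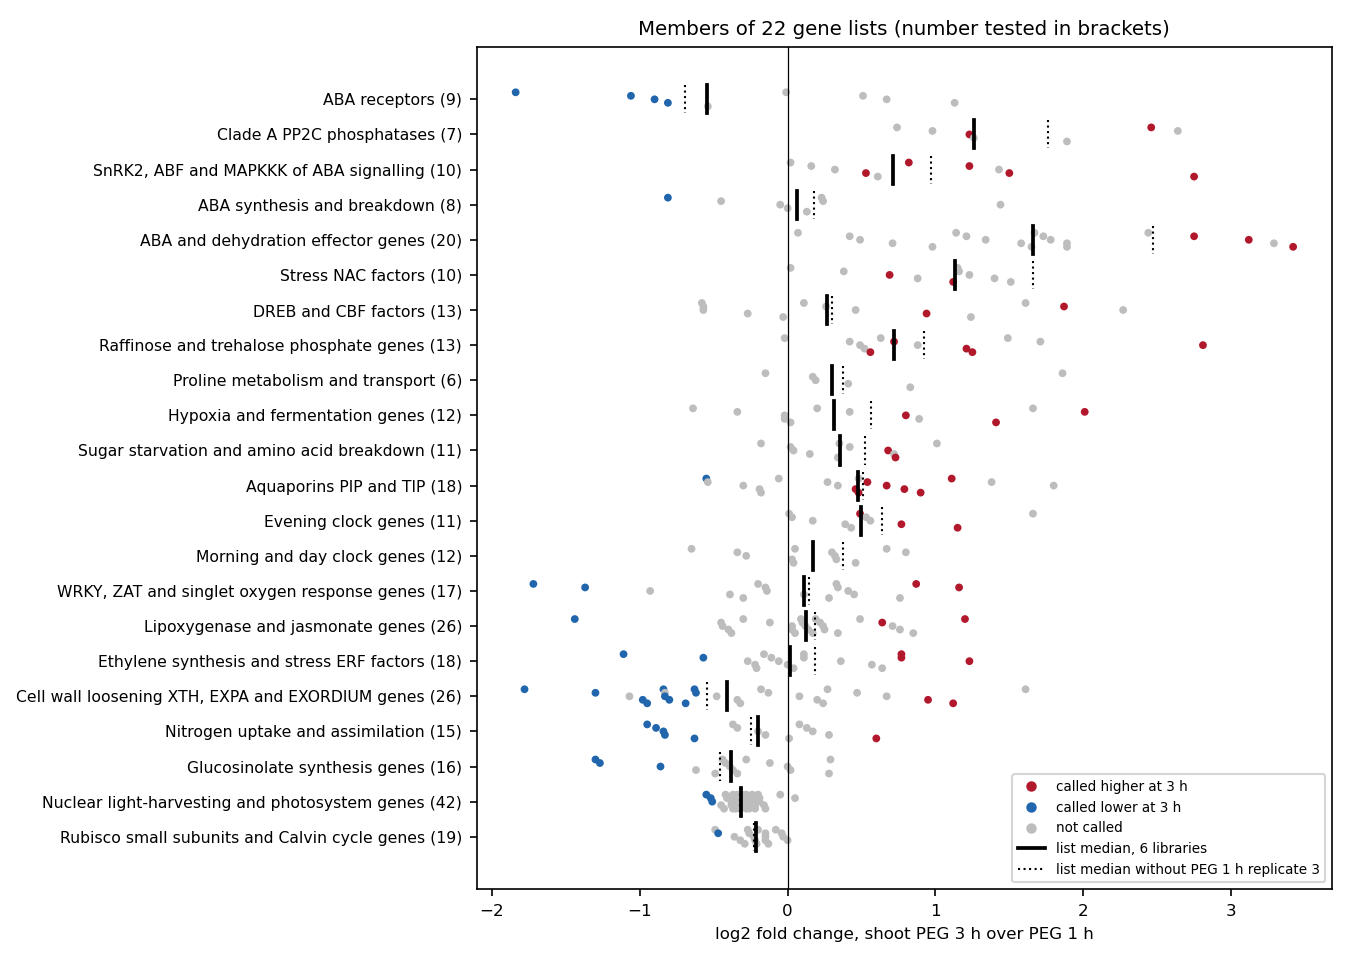
Log2 fold change, PEG 3 h over PEG 1 h (x axis), of each tested member of 22 gene lists (rows). Red points were called higher, blue points lower and grey points were not called. The solid tick is the list median from 6 libraries, such as 1.66 for ABA and dehydration effectors and -0.41 for wall loosening genes, and the dotted tick the median without replicate 3 of PEG 1 h.

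Transcription factor genes of drought were tested next. Of 10 stress NAC genes, 2 rose and none fell, with a median of 1.13. In 9 of the 10, every 3 h library lay above every 1 h library, against 12.3% of all genes tested. ORE1, a NAC factor of leaf senescence, had 88.7, 91.3 and 76.0 CPM at 3 h, against 32.4, 28.3 and 56.9 CPM at 1 h. NAC102 rose by 0.69. Leaving replicate 3 of PEG 1 h out, 9 of the 10 rose, whereas none was called without replicate 1 of PEG 1 h or replicate 1 of PEG 3 h, and 1 or 2 without each of the others.

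Of 13 DREB and CBF genes, factors that bind the dehydration response element, 2 rose and none fell. Leaving out replicate 3 of PEG 1 h gave 6 that rose and 1 that fell, leaving out its replicate 1 gave none, and each other omission gave 2 that rose. CBF4, the drought-responsive member of the CBF group, had 17.9, 18.8 and 14.6 CPM at 3 h, against 3.6, 1.92 and 8.51 CPM at 1 h, a log2 fold change of 1.87. DREB2B rose by 0.94. DREB2A had 255, 268 and 252 CPM at 3 h, against 75.7, 77.5 and 174 CPM at 1 h, and was not called (adjusted p = 0.097 by edgeR). Its log2 fold change was 1.76 without replicate 3 of PEG 1 h (adjusted p = 6.2e-09 by edgeR), and DREB2A was not called without any other library. The cold-linked CBF1 and CBF3 had log2 differences of 0.11 and 0.26 and were not called, and CBF2 had -0.57 with an adjusted p of 0.085. The CBF1, CBF2 and CBF3 genes are near copies of each other, so their counts are uncertain between them.

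Genes of protective sugars were among the risers. Of 13 raffinose and trehalose phosphate genes, 5 rose and none fell, with a median of 0.72. GOLS2 had 7.56, 19.6 and 18.9 CPM at 3 h, against 1.8, 1.1 and 3.82 CPM at 1 h. RS5, the raffinose synthase gene, had 20.7, 38.7 and 28 CPM at 3 h, against 11.4, 9.89 and 15.8 CPM at 1 h, a log2 fold change of 1.25. GOLS1 rose by 1.21, and the trehalose phosphate synthase family genes TPS11 and TPS9 by 0.72 and 0.56. The 5 risers became 10 without replicate 3 of PEG 1 h and 2 to 6 without any other library, fewest without replicate 1 of PEG 1 h.

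Of 6 proline genes, none was called by edgeR or DESeq2, and 2 had an unadjusted p under 0.05. In edgeR, 3 rose without replicate 3 of PEG 1 h, and none was called without any other library. P5CS1, whose enzyme makes the committed step of proline synthesis, had 111, 113 and 119 CPM at 3 h, against 9.61, 15.4 and 69.6 CPM at 1 h. Its log2 difference of 1.86 ± 0.78 (SE) had an adjusted p of 0.3 by edgeR, and 3.19 with an adjusted p of 2e-10 without replicate 3 of PEG 1 h. PRODH1, the proline dehydrogenase gene, had a log2 difference of -0.15.

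Of 11 sugar starvation and amino acid breakdown genes, 2 rose and none fell. They were IVD (0.68) and MCCA (0.73), both of branched-chain amino acid and leucine breakdown. Leaving out replicate 3 of PEG 1 h gave 7 risers, leaving out replicate 1 of PEG 3 h gave 1, and each other omission gave none. Of 12 hypoxia and fermentation genes, 3 rose, which became 4 without replicate 3 of PEG 1 h, none without its replicate 2, and 2 or 3 otherwise. ADH1 had 84.0, 92.6 and 140 CPM at 3 h, against 18.6, 20.6 and 39.6 CPM at 1 h. SUS1, a sucrose synthase, rose by 1.41 and SAD6, a desaturase, by 0.80. PDC1, the pyruvate decarboxylase partner of ADH1, had 9.55, 23.7 and 37.6 CPM at 3 h, against 5.11, 6.32 and 11.7 CPM at 1 h, and the groups overlapped.

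Most called aquaporin genes rose. Of 18 PIP and TIP genes, 7 rose and 1 fell, with a median of 0.47. These counts became 10 and 1 without replicate 3 of PEG 1 h. They fell to 1 riser and no faller without replicate 1 of PEG 1 h, and to 3 to 5 risers and no faller without each of the others. PIP2;2 had 290, 298 and 321 CPM at 3 h, against 111, 121 and 190 CPM at 1 h. Its groups lay well apart, with a log2 fold change of 1.11 ± 0.17 (SE; edgeR, adjusted p = 0.003). PIP2;2 and PIP2;3 are near copies, and counts may be split uncertainly between them.

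PIP1;3 had 904, 819 and 916 CPM at 3 h, against 418, 451 and 655 CPM at 1 h, a log2 fold change of 0.79. PIP1;1 (0.67), PIP1;2 (0.54), PIP1;4 (0.46) and PIP2;5 (0.90) also rose, as did the tonoplast gene TIP2;2 (0.48). TIP2;1, another tonoplast aquaporin, had 1840, 1460 and 1750 CPM at 3 h, against 2500, 2980 and 1920 CPM at 1 h, a log2 fold change of -0.55. The plasma membrane genes PIP1;5, PIP2;4, PIP2;7 and PIP2;8 had log2 differences of -0.30, -0.54, -0.19 and -0.18 and were not called.

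Most called wall loosening genes fell. Of 26 XTH, expansin and EXORDIUM genes, 10 fell and 2 rose, with a median of -0.41. The fit without replicate 3 of PEG 1 h gave 12 of 27 that fell and 4 that rose. Only 3 fell without replicate 1 of PEG 1 h, 4 or 5 without replicate 2 of PEG 1 h or replicate 1 or 2 of PEG 3 h, and 9 without replicate 3 of PEG 3 h. XTH23, a xyloglucan endotransglucosylase, had 25.9, 30.9 and 24.5 CPM at 3 h, against 66.1, 76.1 and 58.7 CPM at 1 h. The groups did not overlap, and the log2 fold change was -1.30 ± 0.16 (SE; edgeR, adjusted p = 0.00056).

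XTH17 changed by -1.78 and XTH18 by -0.95. XTH4, XTH7, XTH8, the expansin gene EXPA6, EXO, PHI-1 and EXL3 changed by -0.62 to -0.98. XTH19 and EXL4 were the exceptions. XTH19 had 15.9, 10.1 and 10.6 CPM at 3 h, against 5.41, 6.6 and 4.4 CPM at 1 h. EXL4, an EXORDIUM-like gene, had 523, 493 and 605 CPM at 3 h, against 234, 269 and 338 CPM at 1 h, a log2 fold change of 0.95. XTH17, XTH18 and XTH19 are close relatives, so their counts may be uncertain between them.

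Most called nitrogen genes fell. Of 15 nitrogen uptake and assimilation genes, 5 fell and 1 rose, with a median of -0.20. With replicate 3 of PEG 1 h left out, 7 fell and 2 rose, and 2 to 5 fell without any other library, fewest without replicate 2 of PEG 1 h or of PEG 3 h. NRT1.1, a nitrate transporter and sensor, had 140, 111 and 139 CPM at 3 h, against 311, 273 and 173 CPM at 1 h, a log2 fold change of -0.95. GSR1, a cytosolic glutamine synthetase, changed by -0.89. NRT1.7, which loads nitrate into the phloem of old leaves, rose by 0.60.

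LBD37, LBD38 and LBD39, nitrate-induced repressors of nitrogen and anthocyanin genes, fell by 0.63, 0.84 and 0.83 on the log2 scale. LBD38 had 159, 114 and 159 CPM at 3 h, against 249, 278 and 243 CPM at 1 h. In time order, its mean was 143 ± 6.21 CPM in water at 1 h, 257 ± 18.4 in PEG at 1 h, 173 ± 71.7 at 2 h and 144 ± 25.8 at 3 h (SD). The LBD38 level at 3 h was thus near that of the 1 h water libraries, while the level at 1 h in PEG was above both. LBD39 had 53.6 ± 7.99 CPM in water, 83.1 ± 5.87 in PEG at 1 h and 47.1 ± 6.75 at 3 h.

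**Figure D4:**
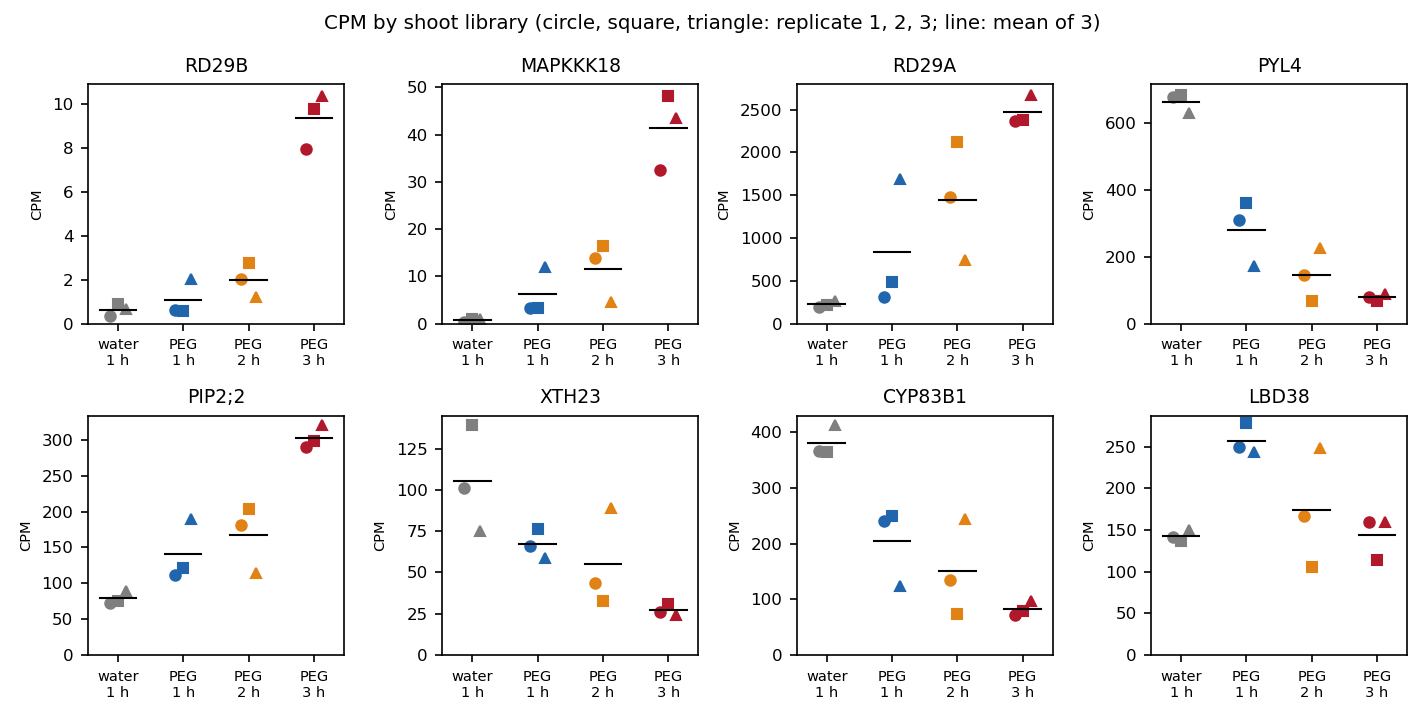
CPM (y axis, linear from 0) of 8 genes in each shoot library in water at 1 h and in PEG at 1, 2 and 3 h (x axis), with the mean of 3 libraries as a line. RD29B, MAPKKK18, RD29A and PIP2;2 lie highest at 3 h, PYL4, XTH23 and CYP83B1 lowest at 3 h, and LBD38 lies highest at 1 h in PEG, at 257 CPM against 144 CPM at 3 h.

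Of 16 glucosinolate synthesis genes, 3 fell and none rose, with a median of -0.38. FMO GS-OX4 and IGMT2, which modify glucosinolates and are not on that list, rose by 2.52 and 1.28. On the list, 5 of 17 fell without replicate 3 of PEG 1 h, none without its replicate 1, and 1 to 3 without each of the others. CYP83B1, which acts on the indole branch, had 72.0, 79.9 and 96.5 CPM at 3 h, against 240, 249 and 124 CPM at 1 h. Every 3 h library was below the lowest 1 h library, replicate 3, and the log2 fold change was -1.30. CYP79B2, the step before it, changed by -0.86, and MYB28, a regulator of the aliphatic branch, by -1.27.

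Photosynthesis genes lay a little lower. Of 42 nuclear light-harvesting and photosystem genes, 3 fell and none rose, with a median of -0.31. In 32 of the 42, every 3 h library was below every 1 h library, against 12.2% of all genes tested. PSBX, a small photosystem II protein, had 2900, 2720 and 2880 CPM at 3 h, against 4060, 4550 and 3480 CPM at 1 h, a log2 fold change of -0.51. LHCB2.3 and PSAH2 changed by -0.52 and -0.55. In the fit without replicate 3 of PEG 1 h, 11 of the 42 fell. None was called without replicate 1 or 2 of PEG 1 h or replicate 1 or 2 of PEG 3 h, and 3 fell without replicate 3 of PEG 3 h.

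Of 19 Rubisco small subunit and Calvin cycle genes, 1 fell and none rose, with a median of -0.21. It was RCA, the Rubisco activase gene, at 2560 ± 202 CPM at 3 h and 3550 ± 504 CPM at 1 h (SD). The fit without replicate 3 of PEG 1 h gave 5 that fell, and the fits without each other library gave none. Of 10 chlorophyll breakdown and senescence genes, NYE1, which takes magnesium from chlorophyll a, rose by 0.79 and NYC1, a chlorophyll b reductase, by 0.69. Both calls were lost in the fits without replicate 1 or 2 of either group, and 1 was lost without replicate 3 of PEG 3 h. None of 13 chlorophyll synthesis genes was called by edgeR or DESeq2, and 1 had an unadjusted p under 0.05.

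Some evening clock genes rose. Of 11 tested, 3 rose and none fell, with a median of 0.49. FKF1, a blue light receptor of the afternoon, had 109, 96.4 and 124 CPM at 3 h, against 60.1, 64.9 and 67.8 CPM at 1 h. LUX, a part of the evening complex, rose by 0.49 and its relative BOA by 1.15. GI had 122, 111 and 106 CPM at 3 h, against 56.5, 79.4 and 94.8 CPM at 1 h, and TOC1 had 40.2, 50.0 and 49.0 CPM at 3 h, against 25.5, 29.4 and 41.7 CPM at 1 h. Neither was called (edgeR, adjusted p = 0.056 for GI and 0.096 for TOC1). Without replicate 3 of PEG 1 h, 8 of the 11 rose, against 1 without any other library. LUX and BOA were not called in those 5 fits.

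Of 12 morning and day clock genes, none was called by edgeR or DESeq2, and 1 had an unadjusted p under 0.05. LHY had a log2 difference of -0.65 and CCA1 of 0.46, and the groups overlapped in both. The labels give no clock hour of sampling, and water was sampled at 1 h only. Time in PEG and time of day cannot be told apart in these genes.

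Of 26 lipoxygenase and jasmonate genes, 2 rose and 1 fell, with a median of 0.13, beside 5.91% called of all genes tested. JAR1, which joins jasmonate to isoleucine to make the active hormone, had 76.4, 86.1 and 70.2 CPM at 3 h, against 31.5, 25.8 and 44.3 CPM at 1 h, a log2 fold change of 1.2. CYP94C1, which oxidises that conjugate, had 15.9, 14.7 and 10.9 CPM at 3 h, against 37.9, 38.2 and 35.5 CPM at 1 h, a log2 fold change of -1.44. JAZ12, a repressor of the pathway, rose by 0.64. The lipoxygenase gene LOX2 had 78.0, 84.0 and 93.0 CPM at 3 h, against 77.5, 69.0 and 69.0 CPM at 1 h, and was not called. Without replicate 3 of PEG 1 h, 6 genes of this list rose and 1 fell, and 1 to 3 rose and 1 fell without any other library.

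Of 18 ethylene synthesis and stress ERF genes, 3 rose and 2 fell. The synthase gene ACS6 rose by 0.77 and its relative ACS7 changed by -1.11. ACS7 had 21.5, 20.6 and 20 CPM at 3 h, against 48.4, 45.1 and 40.5 CPM at 1 h, so the replicates at each time lay close together. ERF1 rose by 1.23, ERF8 by 0.77, and ERF105 changed by -0.57. Risers numbered 5 without replicate 3 of PEG 1 h and none to 4 without any other library, none when replicate 2 of PEG 1 h or replicate 1 of PEG 3 h was left out. Fallers numbered 1 or 2 throughout these fits.

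Of 17 WRKY, ZAT and singlet oxygen response genes, 2 rose and 2 fell. ZAT6, a zinc finger gene of stress responses, had 638, 549 and 540 CPM at 3 h, against 217, 215 and 340 CPM at 1 h, a log2 fold change of 1.16. WRKY18 rose by 0.87, and the zinc finger genes AZF3 and AZF1 changed by -1.37 and -1.72. BAP1, a marker of singlet oxygen, had 30.6, 31.7 and 34.4 CPM at 3 h, against 32.1, 41.8 and 37.6 CPM at 1 h. Its groups overlapped, with an adjusted p of 0.51 by edgeR. Of the whole list, 5 rose and 3 fell without replicate 3 of PEG 1 h, and 2 to 4 rose and 1 fell without any other library.

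Of 5 plant U-box ligase genes, PUB22 and PUB23 changed by -1.02 and -0.83, and PUB18 rose by 0.93. PUB22 and PUB23 are known negative regulators of the drought response that act together. PUB19 had 277, 313 and 246 CPM at 3 h, against 22.8, 19.5 and 102 CPM at 1 h, and was not called with 6 libraries (log2 difference 2.54, adjusted p = 0.17 by edgeR). Without replicate 3 of PEG 1 h its log2 fold change was 3.73 (adjusted p = 5.4e-12 by edgeR), and PUB19 was not called without any other library. The calls of PUB18, PUB22 and PUB23 were all lost without replicate 1 or 2 of PEG 1 h, and 1 gene of the list was called without each library of PEG 3 h.

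Of 17 cuticular wax genes, 3 rose and 1 fell. CER6, the condensing enzyme of wax chain elongation, had 588, 561 and 558 CPM at 3 h, against 406, 371 and 403 CPM at 1 h, and replicate 3 at 1 h did not stand out. CER3 rose by 0.52 and MYB96, an ABA-responsive regulator of wax genes, by 0.79. LACS1, an acyl-CoA synthetase of the same pathway, changed by -1. MYB96 had a log2 difference of -0.05 when the library code digit was a term in a fit of 12 shoot libraries, and was then not called. That term rests on 1 library, replicate 3 of PEG 2 h. All 4 wax calls were lost without replicate 1 or 2 of PEG 1 h or replicate 1 of PEG 3 h, while 3 rose and 4 fell without replicate 3 of PEG 1 h.

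Several lists gave no call in either direction in edgeR's test with 6 libraries. These were 14 starch genes, 11 catalase, superoxide dismutase and ascorbate peroxidase genes, 11 mitochondrial stress and glutathione transferase genes, 17 cytosolic ribosomal protein genes, 8 nucleolar genes and 16 gibberellin, brassinosteroid and shade genes. At an unadjusted p under 0.05 there were 1 starch gene, none of the catalase list, 1 mitochondrial stress, 2 ribosomal, 3 nucleolar and 7 gibberellin, brassinosteroid and shade genes. DESeq2 called 1 starch gene and none in the other 5 lists. In edgeR without replicate 3 of PEG 1 h, 2 starch, 2 mitochondrial stress and 5 gibberellin, brassinosteroid and shade genes rose. BAM1, a beta-amylase of starch breakdown under osmotic stress, had 442, 498 and 395 CPM at 3 h, against 117, 124 and 264 CPM at 1 h (adjusted p = 0.071 by edgeR). Without replicate 3 of PEG 1 h its log2 fold change was 1.9 (adjusted p = 4.9e-09 by edgeR), and BAM1 was not called without any other library. Of 64 chloroplast-encoded transcripts, 2 fell and none rose, beside 2.9% that fell of all genes tested. From this list, 2 fell without replicate 3 of PEG 1 h, against none to 2 without each other library. Of 10 mitochondrion-encoded ones none was called by edgeR or DESeq2 or had an unadjusted p under 0.05. Of 2 guard cell and 3 phloem markers none was called by either tool, and 1 of each had an unadjusted p under 0.05. ATML1, a gene of the outer cell layer, was the 1 of 4 epidermis and meristem markers that fell, by 0.54 on the log2 scale, a call lost in each fit that left out a library other than replicate 3 of PEG 1 h.

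The mean of the 2 h libraries lay between both times for most called genes, but these libraries differed among themselves. The 2 h mean was between the 1 h and 3 h means for 334 of the 397 risers (84.1%) and 322 of the 382 fallers (84.3%), against 30.4% of genes not called. Called genes have wider gaps between 1 h and 3 h than genes not called, so the shares are a description. Replicate 1 at 2 h lay at a median of 0.56 of the way from the 1 h to the 3 h mean in risers, replicate 2 at 0.50 and replicate 3 at 0.05. In fallers, replicate 1 lay at 0.42, replicate 2 at 0.93 and replicate 3 at -0.16, which is beyond the 1 h mean. Replicate 2 at 2 h held 343397 counts, far fewer than the others. Water at 1 h lay on the far side of PEG 1 h from PEG 3 h for 346 of 389 risers with a gap of at least 0.5 on the log2 scale, and for 269 of 360 such fallers.

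The change between 1 h and 3 h was also set against the same change in roots, in 1 fit over 12 libraries of PEG 3 h and 1 h. In that fit 566 genes were called in shoots (3.87% of 14607) and 1086 in roots (7.43%). Of the 397 genes that rose in the fit of 6 shoot libraries, 111 rose in roots in the fit of 12 and 3 fell there. Of the 382 that fell, 54 fell in roots and 4 rose. The difference between the organs itself was called for 68 genes (0.466%), of which 25 (0.171%) were higher and 43 (0.294%) lower in the shoot change. In shoots the library code digit differed between all 1 h and all 3 h libraries. In roots all of these libraries but replicate 1 of PEG 1 h shared a digit. A called organ difference therefore cannot be told apart from an effect of whatever that digit stands for.

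Aquaporins were among them. The shoot change exceeded the root change by 1.5 for PIP1;1, 1.31 for PIP2;2, 1.02 for TIP1;1 and 1.00 for TIP2;2 on the log2 scale. PIP1;1 had 388 ± 16.2 CPM at 3 h and 244 ± 40.0 CPM at 1 h in shoots, and 579 ± 35.7 CPM at 3 h and 1030 ± 48.2 CPM at 1 h in roots (SD, n = 3 each, scaled over the 12 libraries). It rose in shoots and fell in roots, and the test of the difference gave an adjusted p of 0.0013 by edgeR. Of the 18 aquaporin genes, 6 rose and 1 fell in shoots in the fit of 12 libraries, and 1 rose and 5 fell in roots.

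LBD38 and LBD39 differed the other way, by -1.36 and -1.16. LBD38 had 138 ± 24.8 CPM at 3 h and 246 ± 16.9 CPM at 1 h in shoots, and 690 ± 98.3 CPM at 3 h and 477 ± 109 CPM at 1 h in roots. The ABA lists held no gene with a called difference between organs, neither among 9 receptors nor among 22 effector genes tested in that fit. A difference that was not called is not shown to be absent, and data simulated for this fit gave back 15 of 100 differences of 2-fold.

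**Figure D5:**
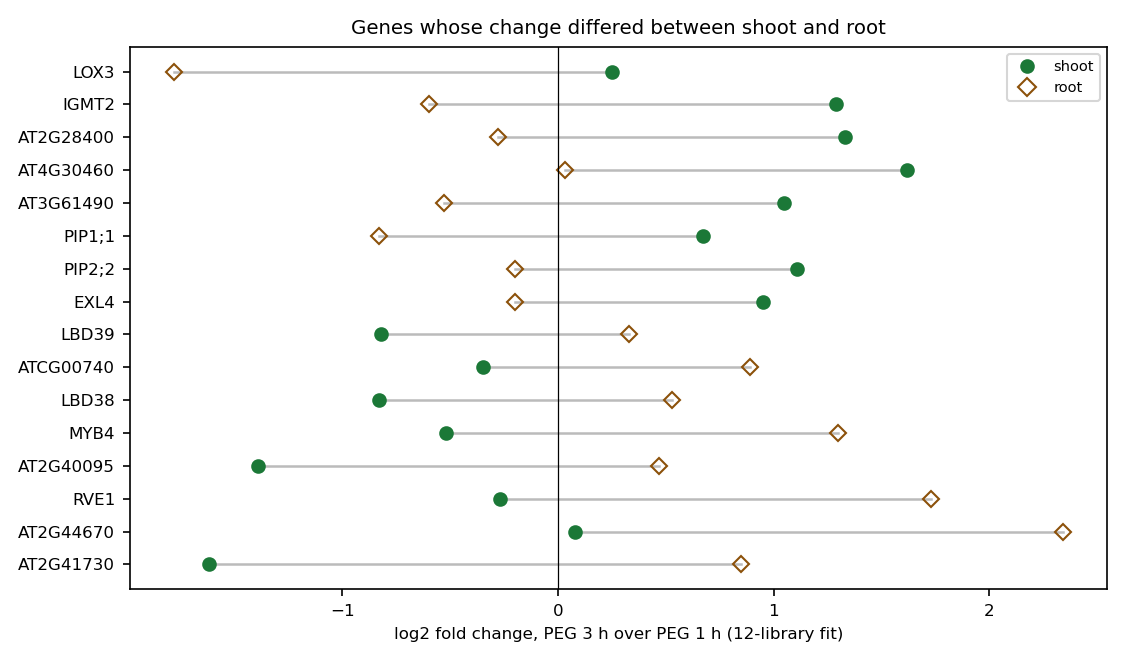
Log2 fold change, PEG 3 h over PEG 1 h (x axis), in shoots (filled circles) and roots (open diamonds) for 16 named genes whose change differed between the organs at an adjusted p under 0.05. PIP1;1 lies at 0.67 in shoots and -0.83 in roots, and LBD38 at -0.83 in shoots and 0.53 in roots.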

How the data were processed

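MARS-seq reads were processed with bcl2fastq, cutadapt, STAR 2.4.2a, HTSeq and DESeq2, per the submitters' processing notes. Whether molecular identifiers were collapsed, the genome build and the annotation are not given in the sources used here, so no positions or sequences are printed and promoters were not searched. The authors deposited 1 table of 18240 genes with raw counts per library, per the file headers. It also holds log2 fold changes, p-values and adjusted p-values of the authors' own contrasts, which served as 1 alternative. Symbols came from RefSeq (TAIR10.1), which held 18125 of the identifiers.

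Only counts entered the tests: filterByExpr, TMM scaling and a robust quasi-likelihood fit in edgeR with p-values, all two-sided, adjusted by Benjamini and Hochberg across every tested gene, on the 6 shoot libraries (4 residual degrees of freedom). The organ difference was an interaction term over 12 libraries (8 residual degrees of freedom). The versions were edgeR 4.0.16 and DESeq2 1.42.0, run with limma 3.58.1 under R 4.3.3. On data simulated for the shoot comparison, 100 of 100 genes changed 4-fold and 68 of 100 changed 2-fold were recovered, with 14 false calls, 7.69% of the calls. For the organ difference, 84 and 15 of 100 were recovered, with 6 false calls, 5.71%. Genes changed in the simulations had a mean of at least 5 CPM. Of all genes tested in the shoot data, 39 changed more than 4-fold, of which 20 were called higher and 8 lower. PUB19, with a log2 difference of 2.54, was not called (edgeR, adjusted p = 0.17). The simulated shares are therefore not the power for genes whose replicates spread as widely as those of PUB19.

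The genes and the 43 gene lists, beside chloroplast- and mitochondrion-encoded transcripts, were chosen with earlier results of these data known. Of 681 list entries, 14 were left out because RefSeq did not hold the name, and 542 were tested. Named genes are the 12 highest and 12 lowest fold changes among called genes without overlap and with at least 10 CPM in a group, up to 4 members per list by adjusted p, 12 genes always shown and, for the organ difference, the 5 highest and 5 lowest. Other list members complete a count or were named after their values were seen. Replicate numbers were not used as pairs. The authors also deposited normalized signal and log2 regularised values, which were not used.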

Additional observations from a re-analysis of the deposited data

Results flagged for a closer look

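The change between PEG 3 h and PEG 1 h differed between shoots and roots in 16 named genes, each by an interaction test across 12 libraries (edgeR, adjusted p under 0.05). The adjusted p of this test ran from 0.0013 for PIP1;1 to 0.048 for AT2G28400. The number of genes called depended strongly on the libraries used, as given below, and single genes were not followed through those other fits. Each difference below is the log2 change in shoots minus that in roots. None can be told apart from an effect of the library code digit, which changed with time in all shoot libraries but not in most root libraries.

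The change was higher in shoots for PIP1;1, a plasma membrane aquaporin (1.5), its relative PIP2;2 (1.31) and EXL4, an EXORDIUM-like gene (1.15). LOX3, a lipoxygenase of jasmonate synthesis, differed by 2.03, with a log2 change of 0.25 in shoots and -1.78 in roots. IGMT2, an indole glucosinolate methyltransferase with near copies, differed by 1.89. AT2G28400, AT4G30460 and AT3G61490 differed by 1.61, 1.59 and 1.58.

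The change was lower in shoots for LBD38 (-1.36) and LBD39 (-1.16), both nitrate-induced repressors, and for ATCG00740, a chloroplast-encoded gene (-1.24). ATCG00740 rose in roots (0.89) and was not called in shoots (-0.35). RVE1, a clock-related MYB factor, differed by -2, with a log2 change of -0.27 in shoots and 1.73 in roots. MYB4, a repressor of phenylpropanoid genes, differed by -1.82. AT2G41730, AT2G44670 and AT2G40095 differed by -2.46, -2.26 and -1.86. MYB4 and AT2G44670 rose in roots (1.3 and 2.34) and were not called in shoots (-0.52 and 0.08). AT2G41730 and AT2G40095 fell in shoots (-1.62 and -1.39) and were not called in roots (0.85 and 0.47).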

How the results depend on the processing

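Against 397 risers and 382 fallers, fitting 9 shoot PEG libraries together gave 194 and 165, fitting 12 shoot libraries gave 283 and 224, and a test against a fold of 1.5 gave 14 and 26. Leaving out single libraries gave 95 to 979 risers and 138 to 753 fallers. The 68 genes with a called organ difference became 140 with DESeq2 and 7 to 174 with single libraries left out, lowest without shoot PEG 3 h replicate 2 and highest without shoot PEG 1 h replicate 3. The cause was not tested. Other scaling, no filter on low counts, DESeq2 and the authors' deposited table gave 305 to 459 risers and 309 to 409 fallers. Of the 779 genes called from 6 libraries, these called 771, 757, 580 and 485 in the same direction, in that order. A term for the digit in the library codes gave 324 risers and 423 fallers, of which 412 genes were also called in the fit of 6 libraries, and the log2 fold change of MYB96 changed sign to -0.0464 (edgeR, adjusted p = 0.97). Of the shoot groups PEG 2 h alone holds both digits, with digit 5 in replicate 3 only, so this term rests on that 1 library, which is out of time order.

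Among single genes under up to 12 alternatives each, 2085 values kept their side of the threshold, 314 lost the call, 78 gained it and 1, of the called gene MYB96, reversed. These numbers pool genes called with 6 libraries and genes not called. Only the former could lose a call, so the numbers do not give the share of calls that held. A change of sign in a gene called in neither fit was counted among the 2085. LHY, for example, ranged from -0.86 to 0.19 on the log2 scale. Of list medians, 281 moved by less than the spread and 34 moved by more.

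Deviations of same-numbered libraries from their group means had r of 0.00037, -0.27 and -0.081. Those of libraries with unlike numbers had r of -0.22 to 0.31. With 3 libraries per group, these values cannot decide whether the numbers pair libraries. A replicate block gave 386 risers and 280 fallers, and 39 genes with an organ difference. With it, 11 of 20 dehydration effector genes rose and none of 42 photosystem genes was called. Low counts limit the genes near 3 counts at 1 h, such as TSPO and RD29B.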

Other observations

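The genes in these paragraphs were named after their values were seen, and they were not followed through the alternative fits. Glycosyltransferase genes of the UGT73C group, near copies among which counts may be split uncertainly, lay apart from each other. AT2G36770 had a mean of 24.3 CPM at 3 h and 9.23 CPM at 1 h, a log2 fold change of 1.41, and DOGT1 had 166 CPM at 3 h and 83.2 CPM at 1 h, a log2 fold change of 1.00. UGT73C6 had a log2 difference of 0.05 and was not called (edgeR, adjusted p = 0.95). AFP1 and AFP3, which bind ABI5 and hold back ABA responses, rose by 1.53 and 1.89.

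FRK1, a receptor kinase induced by bacterial flagellin, had 2.06 CPM at 3 h and 7.42 CPM at 1 h. The level at 3 h was low, as 3 counts corresponded to 0.758 to 1.19 CPM. IOS1, a leucine-rich repeat kinase, changed by -1.71, MLO12, a membrane protein of powdery mildew susceptibility, by -1.48, and PCC1 by -1.60. SUC1, a sucrose transporter, had 76.9 CPM at 3 h and 157 CPM at 1 h, a log2 fold change of -1.03.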
